A study of Mus musculus with 14 samples.

Results

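The elastic fibre and crosslinking genes described here were Eln, Fbn2, Mfap4, Mfap5, Fbln1, Fbln2, Fbln5, Emilin1, Lox and Loxl1. They were taken by gene symbol from the probe annotation of the array, and each of the 10 had 1 feature, among 19572 features with 1 gene symbol and 22206 features in all. All cells were mouse embryonic fibroblasts (MEFs) transduced with retroviral Gata4, Hand2, Mef2c and Tbx5 (GHMT), transcription factors that convert fibroblasts into induced cardiomyocyte-like cells, and RNA was taken 2 weeks later. They grew on Matrigel-conjugated polyacrylamide hydrogels of 126 kPa, a stiff substrate, or of 8 kPa, a soft substrate. The 7 groups were GHMT/126 kPa and GHMT/8 kPa with GHMT alone, GHMT/Scramble, GHMT/shYAP and GHMT/shTAZ on 126 kPa with a lentiviral short hairpin RNA (shRNA) added, and, on 8 kPa, GHMT/YAP-5SA and GHMT/TAZ-4SA with a retroviral, constitutively active mutant of YAP or TAZ added. YAP and TAZ are transcriptional coactivators that respond to substrate stiffness. Each group had 2 arrays from independent cultures, and every culture was a mixture of reprogrammed and unconverted cells.

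Elastic fibres give tissues recoil. Fibroblasts and smooth muscle cells secrete tropoelastin, which is deposited on a scaffold of fibrillin microfibrils with the help of fibulins, and lysyl oxidases then join the tropoelastin chains by covalent crosslinks. Fibrillin microfibrils also hold latent TGF-β, and in the heart elastic fibres are made mainly by fibroblasts and the cells of vessel walls and valves.

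The deposited values were log2 ratios made by the authors in 3 separate sets of arrays, so that a value shows a difference and no signal level. The stiffness set (GHMT/126 kPa and GHMT/8 kPa) was scaled to the average of its stiff arrays, and the shRNA set to the average of its scramble arrays. The reference of the set with YAP-5SA and TAZ-4SA is not stated and was not settled from the values. Without a signal level the fibroblast label could not be checked against its markers. Yap1, which encodes YAP, was at −0.89 and −0.88 in the GHMT/shYAP arrays against −0.11 and 0.11 in GHMT/Scramble. Wwtr1, which encodes TAZ, was at −0.36 and −0.31 in GHMT/shTAZ against −0.25 and 0.25 in GHMT/Scramble, a narrower gap. Among the mutant arrays, Yap1 was at 0.24 and 0.06 in those labelled GHMT/YAP-5SA against −0.05 and −0.26 in those labelled GHMT/TAZ-4SA. Wwtr1 was at 0.11 and 0.08 in the arrays labelled GHMT/TAZ-4SA against 0.31 and 0.14 in those labelled GHMT/YAP-5SA, so that it did not follow the label, and whether either feature reads the introduced mutant is not given in the sources used here. Macrophage markers (19 of 20 listed genes on the array) differed widely between groups and between cultures of a group: their mean was −1.64 and −1.56 on 8 kPa, 1.07 and −1.07 in GHMT/Scramble, −2.10 and −3.47 in GHMT/shYAP, and −4.70 and −4.59 in GHMT/shTAZ. RNA was bulk, and fewer cells of a type and less RNA per cell cannot be told apart.

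The first comparison asked how the elastic fibre genes differed between soft and stiff substrates. On 8 kPa, Fbn2 was lower by 2.30 on the log2 scale, a 4.93-fold difference, and was the only member past the test, limma fitted within the set with a Benjamini-Hochberg adjusted p under 0.05 over all 22206 features. Mfap4 and Eln were also more than 2-fold lower on 8 kPa in every array but missed that threshold. The other 7 genes lay within 0.43 of the stiff gel, and 8 of the 10 were lower on 8 kPa, as 9839 of all 22206 features were. The median difference over the 10 genes was −0.36, against 0.03 over all features.

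Fbn2 encodes fibrillin-2, a microfibril protein produced mostly in development and in newly forming elastic tissue. It (feature TC1800001384.mm.2) was at −0.07 and 0.07 in the GHMT/126 kPa arrays and at −2.22 and −2.39 in the GHMT/8 kPa arrays. Both soft arrays lay far below both stiff arrays, and the gap was many times the spread within either group. The difference was −2.30 (SE 0.15, adjusted p = 0.0304 from limma, with n = 2 arrays in each group), and it ranked 16 of 22206 features by size. Over all features 0.0721% passed the test in the lower direction, and 1 of the 10 genes did. When any 1 of the 4 arrays was left out, Fbn2 differed by −2.22 to −2.39, and its adjusted p was 0.183 to 0.244, the lone array of a group being assumed to vary like the other pair.

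Mfap4, a microfibril-associated glycoprotein that binds elastin and collagen, followed. It (feature TC1100000780.mm.2) was at 0.09 and −0.09 on 126 kPa and at −1.55 and −1.70 on 8 kPa. Again the arrays of the 2 groups did not overlap, and the difference was −1.62 (SE 0.15, adjusted p = 0.0646 from limma), or 3.08-fold. Mfap5, a small microfibril protein that binds fibrillins, was at 0.00 in both stiff arrays and at −0.16 and −0.57 in the soft arrays. Both soft values of Mfap5 lay below the stiff ones, but they were as far from each other as their mean was from 0, and the difference of −0.36 (SE 0.18) did not pass the test.

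Eln, which encodes tropoelastin, the core protein of the fibre, was at −0.07 and 0.07 on 126 kPa and at −1.53 and −1.11 on 8 kPa (feature TC0500003379.mm.2). Both soft arrays were low, and they differed from each other by more than the stiff arrays did. The difference was −1.32 (SE 0.19, adjusted p = 0.14 from limma), or 2.50-fold, and it ranked 110 by size. Fbn2, Mfap4 and Eln were the 3 genes at least 2-fold lower on 8 kPa with no overlap between groups, a criterion without a test that 0.815% of all features met. A single fit to all 14 arrays, which estimates the spread from all 7 groups, placed all 3 past the threshold, with adjusted p = 0.00647 for Fbn2, 0.00207 for Mfap4 and 0.0323 for Eln, and 0.787% of features passed it in the lower direction.

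**Figure D1:**
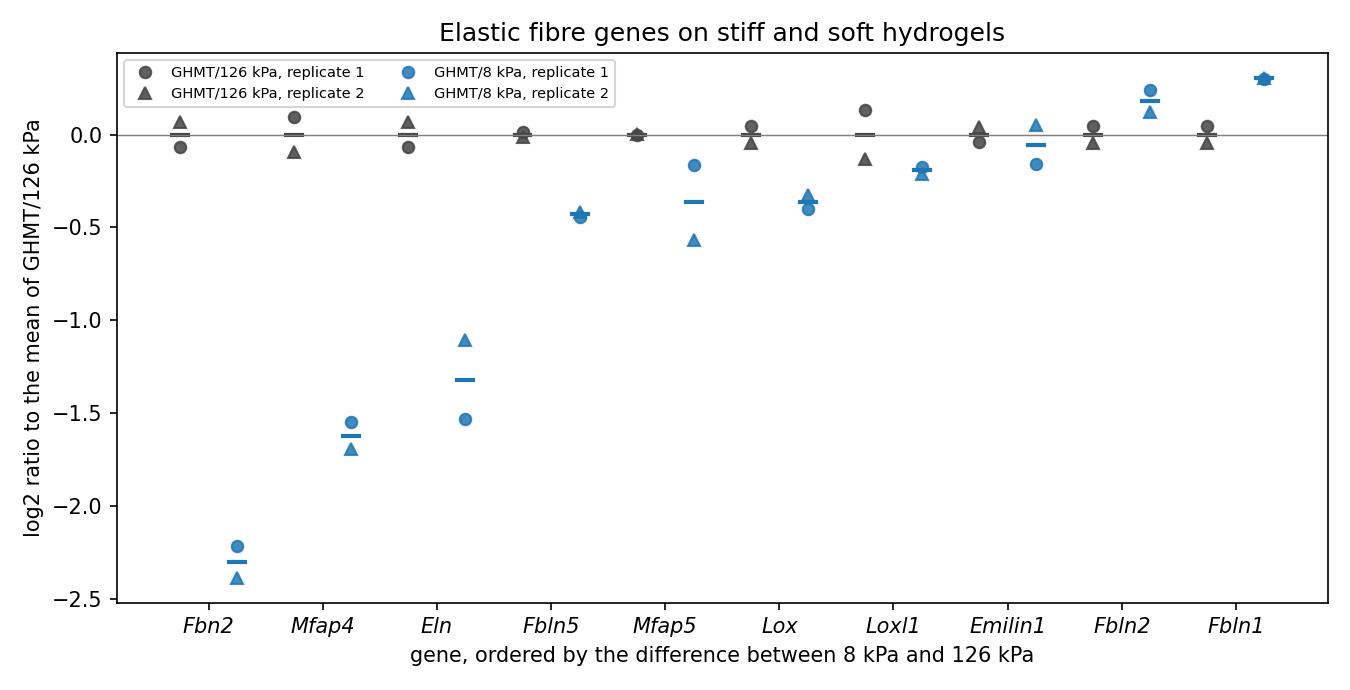
Log2 ratio of each elastic fibre gene to the mean of GHMT/126 kPa (vertical axis) in the 2 GHMT/126 kPa arrays (grey) and the 2 GHMT/8 kPa arrays (blue), with genes in the order of their difference (horizontal axis), circles for replicate 1, triangles for replicate 2 and short bars for group means. Fbn2, Mfap4 and Eln lie between −1.11 and −2.39 on 8 kPa, while Fbln1 and Fbln2 lie above 0.

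The fibulins, which link tropoelastin to microfibrils and to the cell surface, did not share a direction on the soft gel. Fbln5, which binds tropoelastin and LOXL1 and is needed for elastic fibre assembly, was at 0.01 and −0.01 on 126 kPa and at −0.44 and −0.42 on 8 kPa. Its difference of −0.43 (SE 0.13, adjusted p = 0.386 from limma) was larger than the spread between replicates, yet did not pass over all features. Fbln1, found in elastic fibres and basement membranes, was at 0.04 and −0.04 on 126 kPa and at 0.30 and 0.31 on 8 kPa. Fbln2, a fibulin of vessel walls and of the developing heart valves, was at 0.05 and −0.05 against 0.24 and 0.12. Both soft arrays thus lay above both stiff arrays for Fbln1 and Fbln2, with differences of 0.30 (SE 0.14) and 0.18 (SE 0.14) that did not pass. Of all features, 24.3% had both soft arrays above both stiff arrays.

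Promoter sequences from RefSeq (GRCm38.p6) were used for 4 of the 10 genes, Fbln1, Fbln2, Fbln5 and Emilin1, with 6 transcription starts in all. The chromosome that holds Fbn2 and Lox was left out of this search. For Eln, Mfap4, Mfap5 and Loxl1 no promoter sequence was on hand. Windows of Fbln5, lower on the soft gel, and of Fbln1, higher there, are shown side by side, and that of Emilin1 because it had the highest ratio of the 10 genes in an array of YAP-5SA. Each is the 250 bases before the start, 5′ to 3′ on the strand of the gene. Capitals mark CAGAC on either strand (GTCTG on the other), the short sequence that SMAD proteins of the TGF-β pathway bind. Of the 2 Fbln1 starts, whose windows overlap, the upstream one is shown.
Fbln5, upstream start (chr12:101819120-101819369, minus strand): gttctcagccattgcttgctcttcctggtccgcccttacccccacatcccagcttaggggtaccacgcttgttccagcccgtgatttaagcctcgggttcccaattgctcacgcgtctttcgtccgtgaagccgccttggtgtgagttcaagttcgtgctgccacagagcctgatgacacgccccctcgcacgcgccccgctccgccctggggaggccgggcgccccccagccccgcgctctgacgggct
Fbln5, downstream start (chr12:101818485-101818734, minus strand): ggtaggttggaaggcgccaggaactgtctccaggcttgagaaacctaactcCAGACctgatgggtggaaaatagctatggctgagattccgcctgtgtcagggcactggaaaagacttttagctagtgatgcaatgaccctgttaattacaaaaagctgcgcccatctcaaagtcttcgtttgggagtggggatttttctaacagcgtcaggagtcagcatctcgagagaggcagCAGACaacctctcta
Fbln1 (chr15:85205699-85205948, plus strand): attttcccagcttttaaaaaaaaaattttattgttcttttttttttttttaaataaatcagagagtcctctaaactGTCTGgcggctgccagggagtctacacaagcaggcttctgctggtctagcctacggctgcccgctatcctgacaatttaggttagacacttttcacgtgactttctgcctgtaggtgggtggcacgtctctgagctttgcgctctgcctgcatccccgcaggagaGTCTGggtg
Emilin1 (chr5:30913536-30913785, plus strand): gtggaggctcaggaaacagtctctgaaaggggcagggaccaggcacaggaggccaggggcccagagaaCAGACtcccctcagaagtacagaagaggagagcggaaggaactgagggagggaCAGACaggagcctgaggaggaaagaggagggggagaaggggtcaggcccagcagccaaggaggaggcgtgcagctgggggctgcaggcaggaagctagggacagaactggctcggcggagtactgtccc

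CAGAC stood at 2 places in the window of Emilin1, in the window of the downstream Fbln5 start and in that of Fbln1, and at 0 in that of the upstream Fbln5 start. Fbln5 and Fbln1, which lay on opposite sides of 0 on the soft gel, thus both carried it. It was found in 42.2% of 32851 promoter windows of that length. GGAATG, the sequence bound by TEAD factors, through which YAP and TAZ reach DNA, was searched on both strands. It was in 12.6% of all windows and in 0 of the 6 windows of Fbln1, Fbln2, Fbln5 and Emilin1. Windows of Fbn2, Mfap4, Eln, Lox, Loxl1 and Mfap5 were not searched.

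Emilin1, a glycoprotein at the interface of elastin and microfibrils, was at −0.04 and 0.04 on 126 kPa and at −0.16 and 0.05 on 8 kPa. It was the only member whose soft and stiff arrays overlapped, with a difference of −0.06 (SE 0.15). The crosslinking enzymes differed little. Lox, the lysyl oxidase that oxidises lysines of elastin and collagen, was at 0.05 and −0.05 on 126 kPa and at −0.40 and −0.32 on 8 kPa, a difference of −0.36 (SE 0.14, adjusted p = 0.462 from limma). Loxl1, the lysyl oxidase-like enzyme that Fbln5 brings to elastic fibres, was at 0.13 and −0.13 against −0.17 and −0.21, a difference of −0.19 (SE 0.16). Both enzymes were lower in both soft arrays, Lox by more than its replicates differed and Loxl1 by less than the stiff arrays differed from each other. In all, 7 genes had both soft arrays below both stiff arrays, as 17.8% of all features did.

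Genes that act with these 10 were counted from lists of general knowledge. Of 20 other elastic fibre and microfibril genes on the array, 0 passed the test on 8 kPa in limma, while 2 reached an unadjusted p under 0.05 in each direction, as 10.6% of all features did in either direction. In the fit to 14 arrays 1 of the 20 passed in each direction, where 0.759% of all features passed as higher and 0.787% as lower. The largest differences were those of the latent TGF-β binding proteins Ltbp1 (−1.06, SE 0.13, adjusted p = 0.106 from limma, and 0.0134 in the fit to 14 arrays) and Ltbp2 (−0.94, SE 0.16), and of Adamts10 (0.66, SE 0.16, adjusted p = 0.309 from limma, and 0.0349 in the fit to 14 arrays), a protease that binds fibrillin. Of 13 other crosslinking enzymes and their helpers, 0 passed, and 1 reached an unadjusted p under 0.05. That gene was Pcolce2, a procollagen C-proteinase enhancer, higher by 1.11 (SE 0.15, adjusted p = 0.122 from limma, and 0.0339 in the fit to 14 arrays). The median difference was 0.07 for the former list and 0.02 for the latter, against −0.36 for the 10 genes. Members and lists were chosen with earlier results of these data known, and the part of that choice in this gap was not tested. Smooth muscle and myofibroblast genes had a median of −0.31, with 9 of the 10 lower on the soft gel. In limma 0 passed the test (5 were lower and 1 higher with an unadjusted p under 0.05). The fit to 14 arrays passed 2 of them, both lower, where 0.787% of all features passed as lower. They were Actg2 (adjusted p = 0.0112 in that fit) and Myh11 (adjusted p = 0.0459). Mylk went the other way, higher by 1.02 (SE 0.18, adjusted p = 0.184 from limma, and 0.0562 in the fit to 14 arrays). The 11 fibroblast markers on the array averaged −0.17 and −0.15 in the soft arrays, but they did not share a direction. On 8 kPa 4 were higher and 7 lower, from −1.51 (Dpt) to 0.68 (Tcf21), with a median of −0.08. In limma 0 passed (2 were higher and 4 lower with an unadjusted p under 0.05), and the fit to 14 arrays passed 1, lower. The part of either group of cells in the result was not tested.

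The second comparison asked how the same genes differed after knockdown of YAP or TAZ on the stiff gel. With shYAP 9 of the 10 genes were higher than with scramble shRNA and with shTAZ 7 were. Of all 22122 features, 12951 were higher with shYAP and 13057 with shTAZ. The direction of the members was opposite to that on the soft gel for Mfap4, Eln, Fbln5 and Loxl1 with both shRNAs. The sign was also opposite for Emilin1 with both, and for Fbn2 and Lox with shYAP only. Those signs rest on differences smaller than their SE: Emilin1 on 8 kPa (−0.06, SE 0.15), and Fbn2 (0.22, SE 0.36) and Lox (0.01, SE 0.18) with shYAP. The knockdown differences were small, with medians of 0.22 and 0.27 against 0.05 and 0.04 over all features. In limma 0 of the 10 passed in either comparison, where 0.533% of all features passed for shYAP and 0% for shTAZ. Before adjustment, a p under 0.05 was reached by 2 genes with shYAP, both higher, and by 5 with shTAZ, 4 of them higher and 1 lower, while 18.8% of all features reached it for shYAP and 14.4% for shTAZ in either direction. In the fit to all 14 arrays 0 passed. Of all features, 1.13% passed there as higher and 1.44% as lower for shYAP, and 0.52% and 1.25% for shTAZ. The shYAP and shTAZ comparisons share the scramble arrays.

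Mfap4 was at −0.19 and 0.19 with scramble shRNA, at 0.59 and 0.56 with shYAP and at 0.60 and 0.53 with shTAZ. The 4 knockdown arrays lay close together and above both scramble arrays. The differences were 0.58 (SE 0.14, adjusted p = 0.134 from limma) and 0.57 (SE 0.14, adjusted p = 0.183 from limma). Eln was at −0.25 and 0.25 with scramble shRNA, at 0.34 and 0.27 with shYAP and at 0.58 and 0.44 with shTAZ. The higher scramble array of Eln was just below the lower shYAP array, and the differences were 0.30 (SE 0.18) for shYAP and 0.51 (SE 0.18) for shTAZ.

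Fbn2, the gene with the largest difference on the soft gel, had differences of opposite sign with the 2 shRNAs. It was at −0.27 and 0.27 with scramble shRNA, at −0.03 and 0.47 with shYAP and at −0.40 and −1.42 with shTAZ. The shYAP arrays overlapped the scramble arrays, whereas both shTAZ arrays lay below them and far from each other. The difference was 0.22 (SE 0.36) for shYAP and −0.91 (SE 0.36, adjusted p = 0.338 from limma) for shTAZ. Compared directly, shYAP was higher than shTAZ by 1.13 (SE 0.36, adjusted p = 0.541 from limma), and Fbn2 was the 1 member at least 2-fold higher with no overlap, as 0.411% of features were. It was under 2-fold without replicate 2 of GHMT/shYAP (0.88) or of GHMT/shTAZ (0.62). In that comparison 0 of the 10 genes passed in limma, where 0.0452% of features did, with 1 at an unadjusted p under 0.05, as 8.1% of features were. The fit to 14 arrays passed 0 of the 10, where 0.0768% of features passed as higher and 0.104% as lower. The other 9 genes differed between shYAP and shTAZ by 0.21 or less.

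Fbln5 was at −0.14 and 0.14 with scramble shRNA, at 0.37 and 0.35 with shYAP and at 0.50 and 0.35 with shTAZ, with differences of 0.36 (SE 0.13) and 0.42 (SE 0.13). Loxl1 was at −0.27 and 0.27, at 0.34 and 0.33, and at 0.45 and 0.60, with differences of 0.34 (SE 0.19) and 0.52 (SE 0.19). In both genes the 4 knockdown arrays were above both scramble arrays. Emilin1 and Fbln1 had the same order, with differences of 0.22 (SE 0.13) and 0.22 (SE 0.13) for shYAP and of 0.30 (SE 0.13) and 0.25 (SE 0.13) for shTAZ. Both groups were thus apart from scramble, in the higher direction, for 6 genes each, while 31% of all features were for shYAP and 28.6% for shTAZ. Fbln2, Lox and Mfap5 overlapped the scramble arrays with both shRNAs. Mfap5 was the most scattered of them, at 0.18 and −0.57 with shYAP and at 0.08 and −0.37 with shTAZ.

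**Figure D2:**
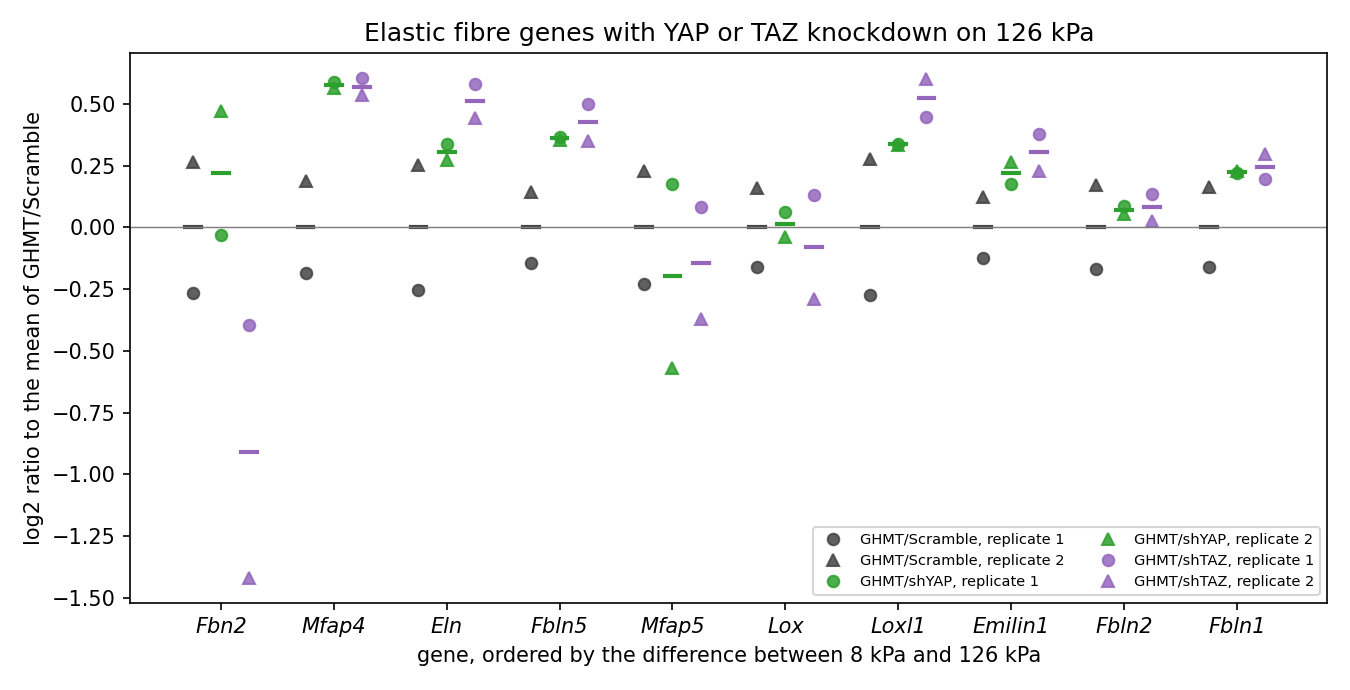
Log2 ratio of each elastic fibre gene to the mean of GHMT/Scramble (vertical axis) in the GHMT/Scramble (grey), GHMT/shYAP (green) and GHMT/shTAZ (purple) arrays, with circles for replicate 1, triangles for replicate 2 and short bars for group means. Replicate 1 of GHMT/Scramble lies below replicate 2 in all 10 genes, and Fbn2 in GHMT/shTAZ reaches −1.42.

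These differences rested in part on 1 scramble culture. All 10 genes were lower in scramble replicate 1 than in replicate 2, with a median gap of −0.36, and all 19 macrophage markers were higher in replicate 1, with a median gap of 2.23. Without replicate 1, shYAP had 6 genes higher and 4 lower with a median of 0.06, and shTAZ had 6 higher and 4 lower with a median of 0.13. Without replicate 2, shYAP had 10 higher and shTAZ 9, with medians of 0.43 and 0.42, and 2 genes (Loxl1 and Mfap4) passed with shYAP and 3 (Eln, Loxl1 and Mfap4) with shTAZ, the lone scramble array being assumed to vary like the knockdown groups. Mfap4 differed by 0.39 with shYAP and by 0.38 with shTAZ when replicate 1 was left out. In GHMT/YAP-5SA, as replicate 1 minus replicate 2, the markers had a median gap of −1.44 and the 10 genes one of 0.37. There 8 genes were higher in replicate 1. In GHMT/shYAP the median gap was 1.43 for the markers and 0.02 for the 10 genes, with 7 genes higher in replicate 1. In the remaining groups it was −0.06 to 0.46 for the markers and 0.02 to 0.14 for the 10 genes. On the soft gel the markers had a median difference of −1.56, and Fbn2, Mfap4 and Eln were low there too. The part of the macrophage signal in these differences was not tested.

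**Figure D3:**
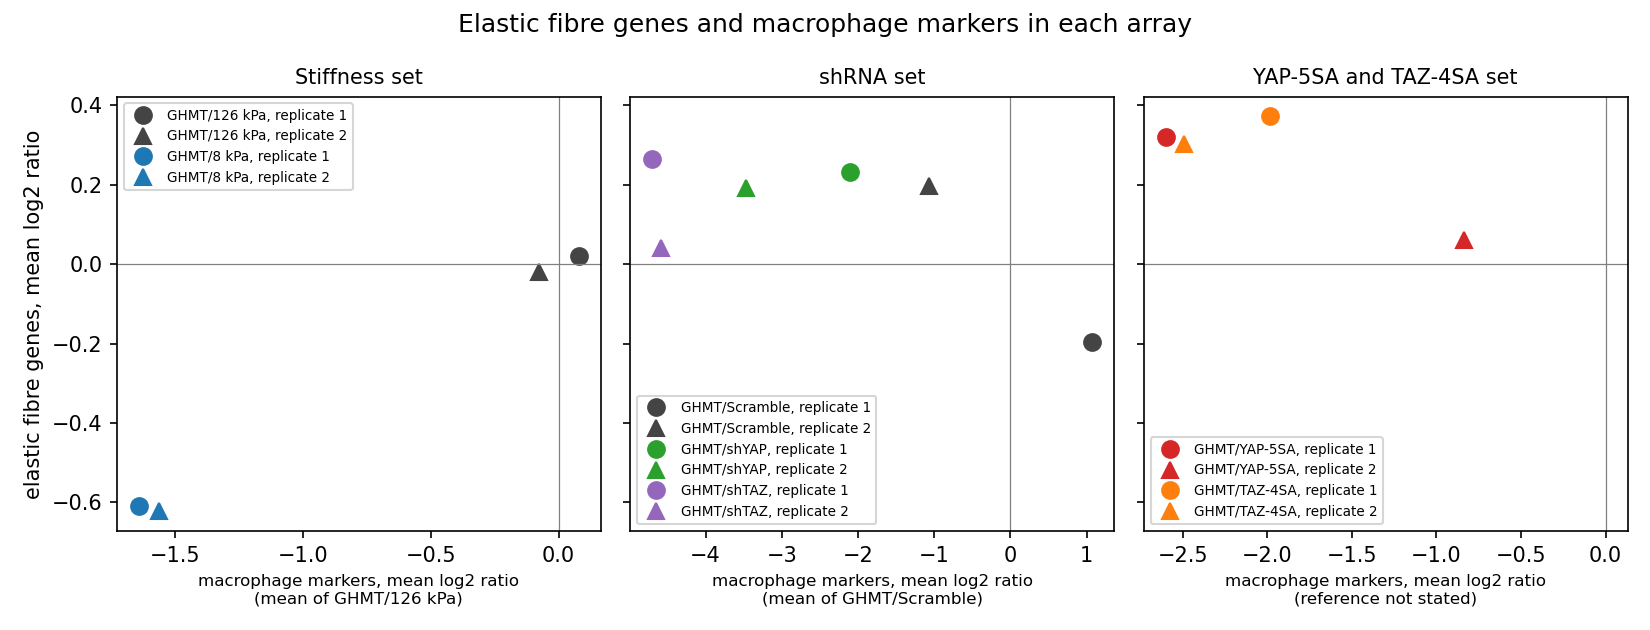
Mean log2 ratio of the 10 elastic fibre genes (vertical axis) against that of 19 macrophage markers (horizontal axis), 1 point per array, in the stiffness, shRNA and mutant sets, each relative to its own reference. Both means are low on 8 kPa (elastic fibre genes at −0.61 and −0.62), while in the shRNA set the array with the highest macrophage mean, replicate 1 of GHMT/Scramble, has the lowest elastic fibre mean (−0.20).

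Among the genes that act with these 10, 0 of 20 other elastic fibre and microfibril genes passed with either shRNA in limma (with an unadjusted p under 0.05, shYAP had 6 above and 2 below scramble, and shTAZ had 7 above and 1 below), and in the fit to 14 arrays 1 was higher with each. The largest differences were those of Fbln7 (0.81, SE 0.15) and the microfibril gene Mfap2 (0.79, SE 0.20) with shYAP, and of Adamtsl2 (1.07, SE 0.15) with shTAZ. Pcolce2 was higher by 1.29 (SE 0.26) with shYAP and by 1.44 (SE 0.26) with shTAZ, neither past the test within the set (adjusted p = 0.0984 and 0.124 from limma) and both past it in the fit to 14 arrays (adjusted p = 0.0135 and 0.00996). Of 15 elastin-degrading proteases and inhibitors, 9 lay above scramble and 6 below with each shRNA, and 0 passed within the set (with an unadjusted p under 0.05, shYAP had 0 above and 2 below, and shTAZ had 2 above and 4 below), while in the fit to 14 arrays 1 was lower with shYAP and 2 with shTAZ. Their median difference was 0.07 with shYAP and 0.11 with shTAZ. Among elastases that macrophages make, Mmp12 differed by −2.99 and −4.97 (SE 0.56 for both), cathepsin S (Ctss) by −3.23 and −4.58 (SE 0.80 for both), and Mmp9 by 0.36 and −0.87 (SE 0.23 for both). The macrophage markers were low in the same arrays. Of 9 elastin receptors and integrins, 0 passed within the set with either shRNA. With an unadjusted p under 0.05, shYAP had 0 above and 3 below scramble, and shTAZ had 2 above and 3 below. In the fit to 14 arrays 1 was lower with shYAP and 2 with shTAZ. The largest differences were those of Lgals3, a galectin abundant in macrophages (−2.24 and −2.26, SE 0.38 for both), and of the integrin gene Itgb3 (−0.77 and −0.92, SE 0.18 for both).

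The soft gel and the knockdowns were then compared with each other, by testing in the fit to 14 arrays whether the difference between 8 kPa and 126 kPa was unlike that between knockdown and scramble shRNA. Mfap4 passed for both shRNAs and Fbn2 for shYAP. For Mfap4 the soft gel difference minus the shYAP difference was −2.20 in log2 (SE 0.26, adjusted p = 0.00267 from limma), and minus the shTAZ difference it was −2.19 (SE 0.26, adjusted p = 0.0116 from limma). For Fbn2 the contrast was −2.52 against shYAP (SE 0.43, adjusted p = 0.0199 from limma) and −1.39 against shTAZ (SE 0.43, adjusted p = 0.215 from limma). Of all features, 0.692% passed in that direction against shYAP and 0.158% against shTAZ.

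Eln had the third largest of these contrasts against shYAP and the second largest against shTAZ, at −1.62 (SE 0.36, adjusted p = 0.0607 from limma) and −1.83 (SE 0.36, adjusted p = 0.0723 from limma). For Fbln5 the contrasts were −0.79 and −0.85 (SE 0.22 for both), and it did not pass, although its soft arrays were all below and its knockdown arrays all above their controls. Fbln1 and Fbln2 had contrasts of 0.06 to 0.11 with SEs of 0.18 and 0.20. Mfap4 stayed past the threshold against shYAP when any array of the 4 groups was left out (adjusted p = 0.00089 to 0.0203). Fbn2 stayed past it against shYAP only without replicate 2 of GHMT/Scramble (adjusted p = 0.007) and otherwise had an adjusted p of 0.0505 to 0.0962. Against shTAZ, Mfap4 lost its call without replicate 2 of GHMT/8 kPa (adjusted p = 0.0566) or without replicate 1 or 2 of GHMT/shTAZ (0.0713 and 0.0539). The soft gel control carried no shRNA vector, and the 2 differences come from separately scaled sets, so set and treatment cannot be told apart in these contrasts.

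**Figure D4:**
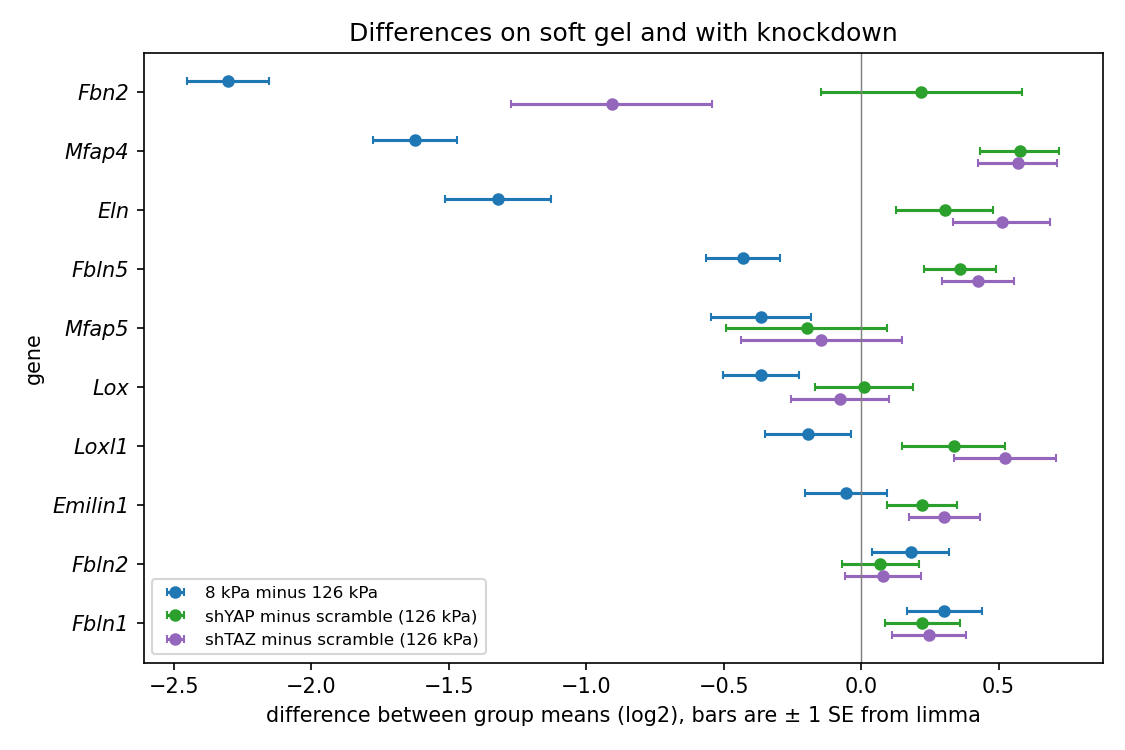
Difference between group means in log2 (horizontal axis) for each elastic fibre gene (vertical axis), for 8 kPa against 126 kPa (blue), shYAP against scramble shRNA (green) and shTAZ against scramble shRNA (purple), with bars of ± 1 SE from limma and n = 2 arrays per group. Mfap4 lies at −1.62 on the soft gel and at 0.58 and 0.57 with the knockdowns, and Fbn2 lies at −2.30, 0.22 and −0.91.

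The third comparison set the 2 active mutants against each other on the soft gel. Eln, Fbn2 and Mfap4 were lower, and Mfap5 and Fbln1 higher, with YAP-5SA than with TAZ-4SA at an unadjusted p under 0.05. Of all features, 13.5% reached that in either direction. In limma 0 of the 10 genes passed the test, where 0.895% of all features did. The fit to 14 arrays also passed 0, where 1.37% of all features passed as higher and 1.1% as lower. The arrays of the groups did not overlap for 3 genes that were higher with YAP-5SA and for 4 that were lower, as held for 21.8% and 23.9% of all features.

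Eln was at 0.35 and −0.50 with YAP-5SA and at 0.87 and 0.64 with TAZ-4SA. The YAP-5SA arrays differed from each other by as much as the groups did, and the difference was −0.83 (SE 0.27, adjusted p = 0.268 from limma). Fbn2 was at −0.11 and −0.51 with YAP-5SA and at 0.59 and 0.42 with TAZ-4SA, with a difference of −0.81 (SE 0.18, adjusted p = 0.125 from limma). Mfap4 was at −0.25 and −0.77 against 0.22 and −0.02, with a difference of −0.61 (SE 0.21). In all 3 genes replicate 2 of YAP-5SA was the lowest array, and without replicate 1 of that group all 3 passed the test, with differences of −1.25 for Eln, −1.01 for Fbn2 and −0.87 for Mfap4. The spread in that fit came from the TAZ-4SA pair alone, and the lone YAP-5SA array was assumed to vary like it. That replicate 2 also had the highest macrophage mean of the 4 mutant arrays (−0.84, against −1.99 to −2.60), and its part in the result was not tested. With all 4 mutant arrays, 6 of 12 cardiomyocyte markers passed in limma as lower with YAP-5SA (median −1.24), where 0.493% of all features did. Their part was not tested either.

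Mfap5 went the other way. It was at −0.17 and −0.23 with YAP-5SA and at −0.80 and −0.63 with TAZ-4SA, a difference of 0.52 (SE 0.15, adjusted p = 0.204 from limma). Fbln1 was at 1.04 and 0.96 against 0.59 and 0.65, a difference of 0.38 (SE 0.14). For Mfap5 and Fbln1 the groups were well apart and the replicates close. Emilin1 had the highest ratio of the 10 genes in this set, 1.11, in replicate 1 of YAP-5SA, with 0.71 in replicate 2 and 0.74 and 0.67 with TAZ-4SA, and these groups overlapped. Fbln5 was at 0.56 and 0.12 with YAP-5SA and at 0.71 and 0.68 with TAZ-4SA. Lox (−0.09 and 0.14 against −0.26 and −0.19) was apart by 0.25 (SE 0.15), Loxl1 (0.38 and 0.05 against 0.51 and 0.36) overlapped, and Fbln2 differed by −0.01.

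**Figure D5:**
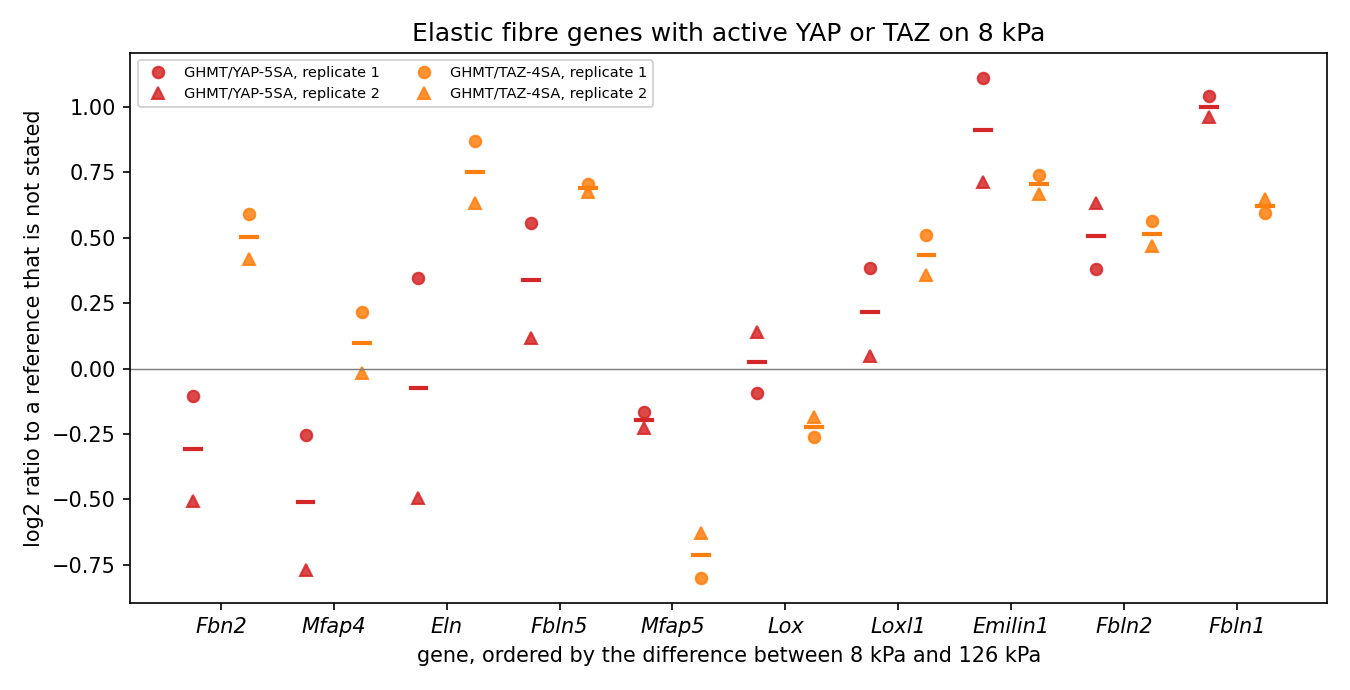
Log2 ratio of each elastic fibre gene, to a reference that is not stated (vertical axis), in the soft gel arrays of GHMT/YAP-5SA (red) and of GHMT/TAZ-4SA (orange), with circles for replicate 1, triangles for replicate 2 and short bars for group means. Eln, Fbn2 and Mfap4 are lowest in replicate 2 of GHMT/YAP-5SA, and Fbln1 and Emilin1 have the highest values in GHMT/YAP-5SA.

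Beside these, the GHMT/8 kPa arrays had −1.53 and −1.11 for Eln, −2.22 and −2.39 for Fbn2 and −1.55 and −1.70 for Mfap4 relative to GHMT/126 kPa. The mutant arrays lay between −0.77 and 0.87 for the same 3 genes relative to their own reference. Since it is not settled that the references are the same, no difference was taken between them. Of the genes that act with the 10, Pcolce2 passed the test between the mutants, lower with YAP-5SA by 1.64 on the log2 scale (SE 0.14, adjusted p = 0.0109 from limma), the 1 of 13 crosslinking helpers to do so, and Timp4, a metalloproteinase inhibitor, was 1.07 lower in log2 (SE 0.14, adjusted p = 0.0323 from limma), the 1 of 15 elastin-degrading proteases and inhibitors. Of 20 other elastic fibre and microfibril genes 0 passed in limma, and 5 had an unadjusted p under 0.05, 1 of them higher, the fit to 14 arrays passing 1, higher. Of 9 elastin receptors and integrins 0 passed, and 4 had such a p, all higher, with 1 past the test in the fit to 14 arrays.

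Some of the 10 genes varied closely with Eln over the arrays and others did not. Over the 14 arrays, after the mean of each set was subtracted, Pearson's r with Eln was 0.93 for Mfap4 and 0.91 for Fbln5, ranks 4 and 9 among 19517 features. It was 0.69 for Fbn2 and 0.67 for Loxl1, and 0.36 for Emilin1, 0.22 for Lox and 0.03 for Mfap5. It was −0.31 for Fbln2 and −0.44 for Fbln1, the genes that were higher on the soft gel. The 5 features most like Eln were Col11a1 (r = 0.93), a fibrillar collagen gene, Cyp2t4 (0.93), Pgm5 (0.93), Mfap4 and Ecrg4 (0.93). Among the other pairs of members, Mfap4 and Fbln5 had r = 0.88, Loxl1 and Fbln5 0.83, and Lox and Mfap5 0.72, while Fbln1 and Fbn2 had −0.62. The differences between the groups of a set stay in these values, so r in part restates the differences given above. The arrays of a set share a reference, so these values are a description of 14 arrays, with no test.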

How the data were processed

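RNA of MEFs was measured on 14 Clariom S Mouse arrays, 2 for each of 7 groups, with groups taken from the labels. The submitters' processing notes name Affymetrix Expression Console 1.4. The values deposited by the authors are log2 ratios, scaled in 3 sets, and the genome build is not given in the sources used here. Dim features were not filtered, since ratios hold no signal. The number of arrays limits the precision.

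Tests covered features without a missing value in the set (22206 for stiffness, 22122 for the shRNAs, 22127 for the mutants). Differences and SEs came from lmFit and eBayes of limma 3.58.1 (R 4.3.3) within each set, with 2 or 3 residual degrees of freedom and Benjamini-Hochberg adjustment over all features tested. Contrasts between sets used 1 fit to the 14 arrays. A 2-fold difference is at least 1 in log2 between group means. Annotation gave 1 gene symbol to 19572 features and none to 2634. The text names all 10 members, up to 3 genes of each other list with the largest absolute difference, and the 5 features with the highest r with Eln. The members and lists were chosen with earlier results of these data known. The alternatives were median centring, each array left out, a block for the replicate number, weights for arrays, robust eBayes, only the groups compared and the 14-array fit. The script was tested on simulated data.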

Additional observations from a re-analysis of the deposited data

Results flagged for a closer look

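Differences that were unlike between conditions were flagged by the test of the difference itself. Mfap4 had a contrast of −2.20 (adjusted p = 0.00267 from limma) between its soft gel and shYAP differences and of −2.19 (adjusted p = 0.0116 from limma) between its soft gel and shTAZ differences. It was lower in 2 of 2 soft arrays than in either stiff array and higher in 4 of 4 knockdown arrays than in either scramble array. Fbn2 had a contrast of −2.52 (adjusted p = 0.0199 from limma) between its soft gel and shYAP differences, lower in 2 of 2 soft arrays, while its shYAP arrays overlapped the scramble arrays. Groups of 2 arrays were too small for a test of single arrays that stand apart.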

How the results depend on the processing

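Of the member differences recomputed under the alternatives, 499 kept their direction and side of the threshold, 26 changed sign, 10 gained a call and 5 lost it. On 8 kPa the 1 member past the test became 0 with the replicate number as a block (Fbn2, adjusted p = 0.133), 0 without any 1 array and 3 in the fit to 14 arrays. Leaving out 1 array gave 0 to 2 members past the test for shYAP, 0 to 3 for shTAZ, 0 to 3 for the mutants, 1 to 4 for the soft gel against shYAP and 0 to 4 for the soft gel against shTAZ, with 2-fold counts of 0 to 1 for shTAZ, 0 to 1 between the shRNAs and 0 to 2 for the mutants. Array weights gave 1 member, not 2, for the soft gel against shYAP. The causes were not tested. The 499 are no measure of stability, since of the member differences only that of Fbn2 on 8 kPa had a call to lose. The replicate block, array weights, robust eBayes and the 14-array fit also left the differences themselves unchanged. Leaving out an array of a group not compared did so too.

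The differences that changed sign had not passed the test. With median centring Lox with shYAP was −0.035 and Fbln2 between the mutants 0.0085. Without 1 array, Emilin1 on 8 kPa ranged from −0.16 to 0.0504. With shYAP the ranges were −0.15 to 0.17 for Lox, −0.10 to 0.24 for Fbln2, −0.0454 to 0.48 for Fbn2 and −0.57 to 0.18 for Mfap5. With shTAZ they were −0.0892 to 0.25 for Fbln2, −0.29 to 0.13 for Lox and −0.37 to 0.0842 for Mfap5. Between the shRNAs they were −0.0281 to 0.0424 for Mfap4, −0.0655 to 0.0456 for Fbln2, −0.42 to 0.32 for Mfap5, −0.14 to 0.0109 for Fbln5, −0.12 to 0.30 for Lox and −0.0750 to 0.0297 for Fbln1. Between the mutants Fbln2 ranged from −0.14 to 0.12.

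Replicate numbers were shared by the groups, but no label says whether same-numbered arrays were paired. Their deviations correlated at −0.02 to 0.20, with the highest value between GHMT/Scramble and GHMT/shYAP. With the replicate block no other count of members past the test changed. The depth of signal over background was not analysed here, and 2 arrays per group limit the precision of every value.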
